A study of Mus musculus with 6 samples.

Results

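The genes of the acid-making and degrading machinery of the lysosome were examined in cartilage of the joint surface from knockout (KO) mice and their wildtype controls: 14 genes of the vacuolar proton pump (V-ATPase) and 26 genes of lysosomal proteins, the latter comprising hydrolases, membrane proteins and the transcription factor gene Tfeb. Members were chosen by gene name, and all 40 were found among the 34709 genes of the expression table. Every member also passed the filter on low values and so belonged to the 15373 genes tested. The study compared male mice aged 18 months, 3 libraries of a C57BL/6J line carrying the KO and 3 libraries of wildtype mice, which were littermates; no treatment is named for either group. Nothing in the labels ties the KO to a single cell type. The measurement was poly(A) RNA sequencing of bulk cartilage tissue, with total counts of 52268311 to 63331135 per library.

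The V-ATPase is a rotary machine that pumps protons into the lysosome. Its V1 sector, in the cytosol, burns ATP, and its V0 sector, in the membrane, carries the protons across. The low pH inside activates hydrolases that take apart protein, glycan and lipid delivered by endocytosis and autophagy, including matrix taken up by chondrocytes. TFEB, the product of Tfeb, binds short palindromic E-box elements near the start of many of these genes and raises their transcription when nutrients are short or lysosomes are stressed.

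The promoters were read first, for such elements. Because TFEB is known to act on many of these genes, a high share was likely in advance among members chosen by name. The counts are therefore a description. RefSeq promoter sequences of the GRCm38.p6 assembly, from 250 bases before to 50 bases after each start, were matched for 32 of the 40 members and for 27025 genes in all. The E-box core CACGTG was present in 13 of the 32 member promoters (40.6%) and in 8.09% of all genes with a promoter. The longer form TCACGTGA was present in 8 of the 32 (25.0%), against 1.12% of all genes, and that form extended by G before and C after it in 1, Cln3 (3.13%), against 0.370%. All of these words read the same on both strands, and each longer word contains the shorter one, so the counts are nested. Among pump genes 4 of 10 promoters held the core and 3 of 10 the longer form, and among lysosomal protein genes 9 of 22 and 5 of 22. The match describes letters and is no measurement of binding.

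The 8 promoters with the longer form are shown by 30 bases around it, read on the strand of the gene from 5′ to 3′, because they are the members whose sequence is closest to the element TFEB is known to bind; capitals mark TCACGTGA. Coordinates are those of GRCm38.p6.
Atp6v0d1, chr8:105566050-105566079, minus strand: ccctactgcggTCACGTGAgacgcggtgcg
Atp6v0e, chr17:26676387-26676416, plus strand: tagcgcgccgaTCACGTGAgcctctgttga
Atp6v1a, chr16:44139373-44139402, minus strand: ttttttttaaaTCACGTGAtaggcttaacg
Ctsa, chr2:164833749-164833778, plus strand: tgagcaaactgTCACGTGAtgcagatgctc
Ctsd, chr7:142387908-142387937, minus strand: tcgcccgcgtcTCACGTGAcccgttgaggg
Gla, chrX:134601215-134601244, minus strand: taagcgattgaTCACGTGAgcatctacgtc
Gla, chrX:134601182-134601211, minus strand: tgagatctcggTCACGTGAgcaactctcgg
Mcoln1, chr8:3500462-3500491, plus strand: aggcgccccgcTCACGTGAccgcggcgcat
Cln3, chr7:126583340-126583369, minus strand: cacgggtactgTCACGTGAcccccaacctg
In the GENCODE annotation the windows of Atp6v0d1 and Gla lie before the gene, that of Atp6v1a lies in an intron, and those of Atp6v0e, Ctsa, Ctsd, Mcoln1 and Cln3 fall within exonic bases of some transcript. Ctsa holds a further copy, whose core begins 5 bases after its start and which is not printed.

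Lamp1 lacked the longer form but held the core 4 times, more often than any other member promoter. The 72 bases just before its start (chr8:13159089-13159160, plus strand) are shown for that reason, with CACGTG in capitals. They cover no annotated exon of the gene.
Lamp1: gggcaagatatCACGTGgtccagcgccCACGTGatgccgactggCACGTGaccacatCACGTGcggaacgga

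**Figure D1:**
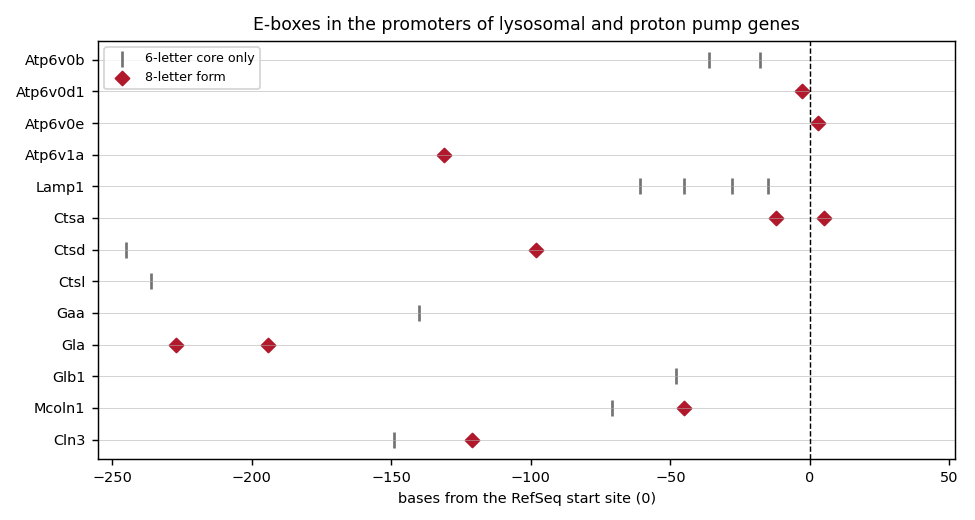
E-boxes in the 13 member promoters that hold the core. The horizontal axis gives the first base of the core in bases from the RefSeq start (0). Grey ticks stand for the core alone and red diamonds for the longer form. In Atp6v0d1 the core within the longer form begins 3 bases before the start, so that it spans the start. In Atp6v1a it begins 131 bases before the start, and Lamp1 has 4 cores that begin between -61 and -15.

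Before levels were compared, the 6 libraries were compared with each other. KO 2 and KO 3 differed by 5.82 times the sampling noise over genes with a mean of at least 200 counts, and the other 14 pairs by 24.3 to 87.0 times. These 2 libraries were therefore averaged and counted as 1 sample, although they differed by more than counting noise, so that the comparison rested on 2 KO samples and 3 wildtype samples. Results of the 6 libraries as labelled are given beside it. The methods of the study describe its samples as independent, but the labels do not say whether these replicates are separate animals, so p-values measure the spread between these samples, which may be technical.

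The cartilage label was checked against 8 chondrocyte markers. Prg4, which encodes lubricin, stood at 402 to 1034 FPKM (fragments per kilobase, scaled within each library) and Comp at 41.0 to 109 FPKM, whereas Col2a1 stood at 12.4 to 21.3 FPKM, Col9a1 at 0.0478 to 0.460 FPKM and Matn3 at 0 in 3 libraries. The 8 neutrophil markers summed to 25567 to 41910 FPKM in wildtype and 48287 to 60046 FPKM in KO, and the 6 erythroid markers to 41210 to 64945 and 14583 to 35663 FPKM, respectively. The 8 chondrocyte markers summed to 510 to 1200 FPKM, so markers of blood and marrow cells outweighed those of cartilage in every library. Most of each sum came from few genes. These were Prg4 for chondrocytes, S100a8 and S100a9 for neutrophils, and Hba-a1 and Hbb-bs for erythroid cells. In bulk tissue, fewer cells of a type and less RNA per cell cannot be told apart.

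The members covered a wide range of levels. In wildtype, Psap had the highest mean level at 438 FPKM and Npc1 the lowest at 3.04 FPKM. Within the pump the range was narrower, from 5.57 FPKM for Atp6v1h to 105 FPKM for Atp6v1g1. The summed level of the 14 pump genes was 648, 663 and 669 FPKM in KO 1, 2 and 3 and 645, 634 and 565 FPKM in wildtype 1, 2 and 3. The KO sums were all above the wildtype sums, KO 1 and wildtype 1 being the nearest. For the 26 lysosomal protein genes the sums were 1716, 1919 and 1906 FPKM in KO and 1826, 1600 and 1852 FPKM in wildtype, and the genotypes overlapped.

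**Figure D2:**
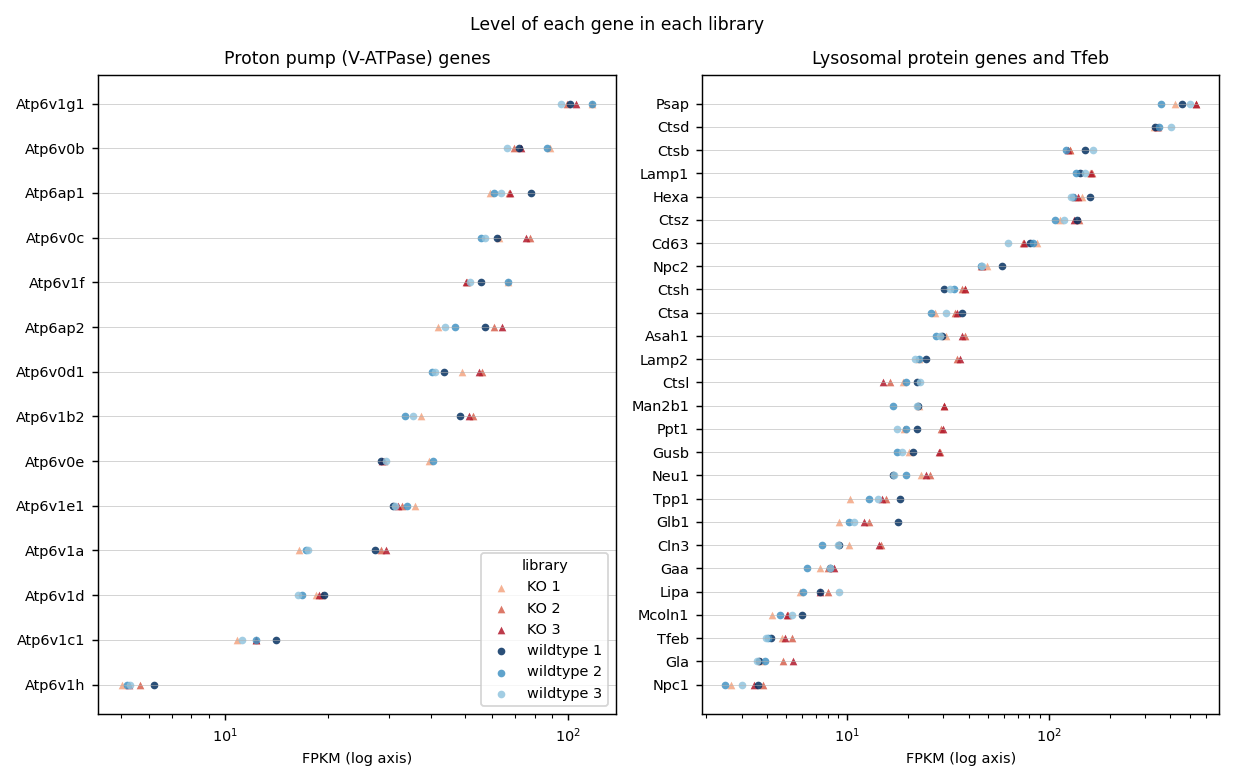
FPKM of each member in each of the 6 libraries, on a log axis, with pump genes on the left and lysosomal protein genes and Tfeb on the right, ordered by the wildtype mean. KO libraries are triangles and wildtype libraries circles, and the symbols of both genotypes lie close together at every level. Of the 40 genes, 30 overlap between genotypes. In every KO library 9 lie above wildtype, against 11.3% of all genes tested, and 1 lies below, against 13.7%.

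No member passed the test of a difference between KO and wildtype at an adjusted p of 0.05 in edgeR's quasi-likelihood fit of the 5 samples, and neither did any other of the 15373 genes (0%). At an unadjusted p under 0.05, 13.7% of all genes tested differed, 7.63% being higher and 6.07% lower in KO. Against that background, 1 of 14 pump genes was higher (7.14%), 5 of 26 lysosomal protein genes were higher (19.2%) and 0 were lower in either class. Over all members this was 6 of 40, or 15.0%. The median log2 difference (KO minus wildtype) was 0.10 for pump genes and 0.10 for lysosomal protein genes, and -0.02 over all genes. DESeq2 on the same samples called 5.72% of all genes and 2 members, Atp6v0d1 (adjusted p = 0.0451) and Cln3 (adjusted p = 0.0477). At an unadjusted p under 0.05 it gave 16.1% of all genes, 8.85% higher and 7.23% lower, and 2 pump and 6 lysosomal protein genes, all of them higher. In the 6 libraries as labelled, edgeR called 3.71% of all genes and 0 members, with 10 members higher and 1 lower at an unadjusted p under 0.05, against 11.9% and 10.3% (22.2% in all) of the genes tested.

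The counts depended on the KO library used. Without KO 1, edgeR called 2.29% of all genes and 0 members, and at an unadjusted p under 0.05 20.7% of all genes (10.8% higher, 9.89% lower), with 9 members higher and 1, Ctsl, lower. Without KO 2 and 3 it called 0.0585% of all genes and 0 members, and at an unadjusted p under 0.05 9.82% (5.36% higher, 4.46% lower), with 2 members higher and 0 lower. These 2 were Atp6v0d1 and Neu1.

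Every KO library lay above every wildtype library for 9 members (22.5%), against 11.3% of all genes tested, and below for 1 member, Ctsl, against 13.7%. The 9 were Atp6v0c and Atp6v0d1 of the pump and Lamp1, Ctsh, Neu1, Man2b1, Asah1, Cln3 and Tfeb. Since KO 2 and KO 3 are close to each other, these orders hold less information than 3 separate samples would give.

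In the membrane sector V0, Atp6v0d1 stood out. Its gene lies at chr8:105524465-105566047 on the minus strand (GRCm38) and encodes the d subunit that joins the sectors. It stood at 49.0, 56.3 and 54.8 FPKM in KO 1, 2 and 3, and at 43.4, 40.04 and 41.0 FPKM in wildtype 1, 2 and 3. The genotypes did not overlap, with a KO mean of 52.3 ± 4.63 FPKM (SD, n = 2) and a wildtype mean of 41.5 ± 1.73 FPKM (SD, n = 3). The log2 difference was 0.35 (SE 0.110, unadjusted p = 0.0147, edgeR's Benjamini-Hochberg adjusted p = 0.238). It stayed between 0.34 and 0.39 when any 1 library was left out, and was 0.32 without both KO 2 and KO 3.

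Atp6v0c, which encodes the c subunit of the proton-carrying ring, stood at 63.0, 77.6 and 75.6 FPKM in KO and 62.0, 55.9 and 57.2 FPKM in wildtype. The groups did not overlap, but KO 1 lay next to wildtype 1. The log2 difference was 0.27 (SE 0.129, edgeR adjusted p = 0.424). The gene has a processed pseudogene, Atp6v0c-ps2, listed at 38.0 to 48.9 FPKM, so how reads were split between them is uncertain. The remaining V0 genes, Atp6v0b and Atp6v0e, differed by 0.11 and 0.08 on the log2 scale and overlapped between genotypes. Both changed sign without KO 1, to -0.12 and -0.22.

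None of the 8 genes of the cytosolic sector V1 had an unadjusted p under 0.05, against 13.7% of all genes tested. All 8 overlapped between genotypes, while 11.3% of all genes lay above and 13.7% below wildtype in every KO library. Atp6v1a encodes the catalytic A subunit that hydrolyses ATP. Its levels were 16.5, 28.6 and 29.5 FPKM in KO and 27.4, 17.2 and 17.4 FPKM in wildtype, so that KO 2, KO 3 and wildtype 1 formed a high group and KO 1, wildtype 2 and wildtype 3 a low group. The log2 difference was 0.15 (SE 0.264, edgeR adjusted p = 0.889) and moved from 0.46 without KO 1 to -0.24 without KO 2 and 3. Atp6v1b2, the partner subunit B, had the same 3 libraries highest, at 37.2, 53.0 and 51.4 FPKM in KO and 48.3, 33.5 and 35.4 FPKM in wildtype. Its log2 difference was 0.21 (SE 0.194, edgeR adjusted p = 0.731).

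Atp6v1f, a small stalk subunit gene, ran the other way, at 66.8, 50.9 and 50.3 FPKM in KO and 55.9, 66.7 and 51.6 FPKM in wildtype. KO 1 and wildtype 2 were the high libraries here. The remaining V1 genes, Atp6v1c1, Atp6v1d, Atp6v1e1, Atp6v1g1 and Atp6v1h, differed by -0.10 to 0.12 on the log2 scale. Of the accessory subunits, Atp6ap2, also known as the prorenin receptor, stood at 41.9, 60.8 and 64.1 FPKM in KO and 57.4, 46.9 and 43.7 FPKM in wildtype. Its log2 difference was 0.09 (SE 0.181, edgeR adjusted p = 0.902), and that of Atp6ap1 was -0.08.

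Which libraries were high went with transcript length. In each library the deviation of a gene from its mean over the 6 libraries (log2 CPM, counts scaled to the library size) was set against the length of its longest coding transcript. Spearman's rho across the 14 pump genes was -0.61 in KO 1 and -0.52 in wildtype 2, where short transcripts tended to be high. It was 0.56, 0.58 and 0.45 in KO 2, KO 3 and wildtype 1, where long transcripts tended to be high. In wildtype 3 it was -0.24. Across 12450 genes with an annotated coding transcript the values had the same signs: -0.44 in KO 1, -0.38 in wildtype 2, 0.28 in KO 2, 0.26 in KO 3, 0.19 in wildtype 1 and -0.07 in wildtype 3. The 26 lysosomal protein genes gave -0.29 in KO 1, -0.39 in wildtype 2, 0.12 in KO 2, 0.15 in KO 3 and 0.18 in wildtype 1. In wildtype 3 they gave 0.31, opposite in sign to the pump genes and to all genes. These are correlations across genes that share libraries, given as descriptions. The pattern crosses both genotypes, and its part in the differences between them was not tested.

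**Figure D3:**
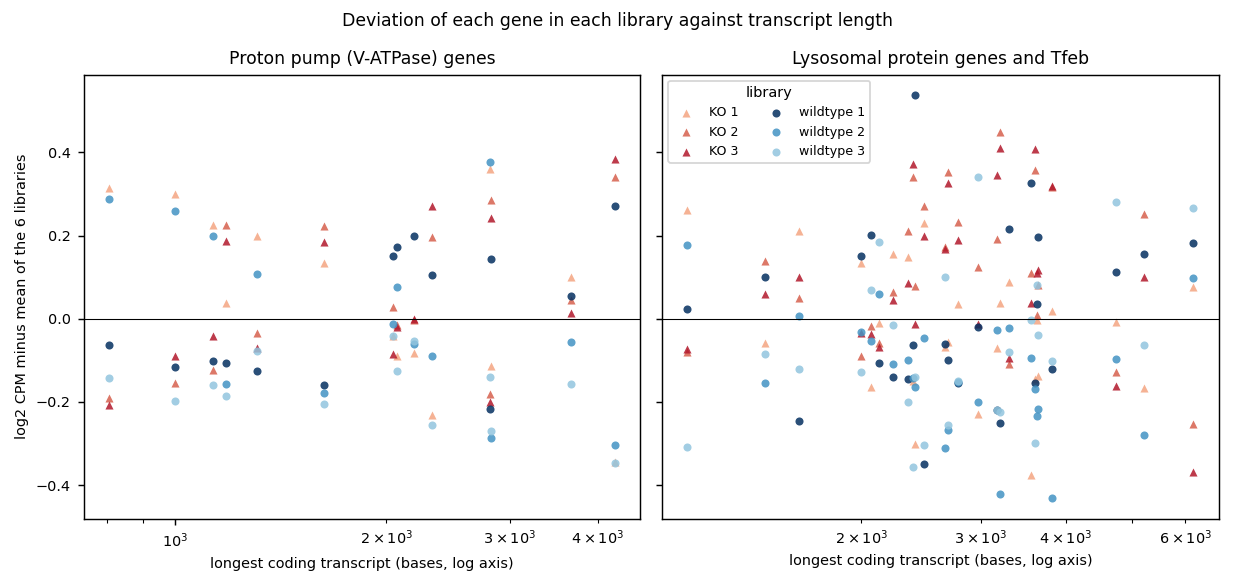
Deviation of each member from its mean over the 6 libraries (vertical axis, log2 CPM) against the length of its longest coding transcript (horizontal axis, bases, log scale), for pump genes on the left and lysosomal protein genes and Tfeb on the right. Pump genes with short transcripts tend to be high in KO 1 and wildtype 2 (rho -0.61 and -0.52). Those with long transcripts tend to be high in KO 2, KO 3 and wildtype 1. Exceptions include Atp6v0e (2812 bases), at 0.36 in KO 1 and 0.38 in wildtype 2, and Atp6v0c (1183 bases), at -0.16 in wildtype 2.

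Among the glycosidases, which strip sugars from glycoproteins, glycolipids and glycosaminoglycans, 6 of 7 had a positive log2 difference, against 47.5% of all genes, and the median was 0.26. At an unadjusted p under 0.05, 3 of 7 were higher, against 7.63% of all genes, and 1 of 7 without KO 2 and 3, against 5.36%. Neu1 (chr17:34931253-34935953, plus strand) encodes the lysosomal sialidase, which works in a complex with cathepsin A. It stood at 23.3, 25.9 and 24.6 FPKM in KO and 16.9, 19.5 and 17.1 FPKM in wildtype. Every KO library was above every wildtype library, with means of 24.3 ± 1.38 FPKM (SD, n = 2) and 17.8 ± 1.47 FPKM (SD, n = 3). The log2 difference was 0.46 (SE 0.133, unadjusted p = 0.0106, edgeR adjusted p = 0.216). It was 0.46 both without KO 1 and without KO 2 and 3, and ranged from 0.40 to 0.56 when any 1 library was left out.

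Man2b1, the lysosomal alpha-mannosidase gene (chr8:85083270-85098282, plus strand), stood at 22.8, 30.3 and 30.3 FPKM in KO and 22.5, 16.9 and 22.2 FPKM in wildtype. The groups did not overlap, but KO 1 exceeded wildtype 1 by less than 1 FPKM. Its log2 difference was 0.39 (SE 0.163, unadjusted p = 0.0490, edgeR adjusted p = 0.362). Gusb (chr5:129989011-130003049, minus strand) encodes beta-glucuronidase, which takes part in the breakdown of glycosaminoglycans. It stood at 20.2, 28.9 and 28.4 FPKM in KO and 21.2, 17.7 and 18.6 FPKM in wildtype, so KO 1 lay within the wildtype range. This was a log2 difference of 0.36 (SE 0.151, unadjusted p = 0.0477, edgeR adjusted p = 0.359), and it fell to 0.15 without KO 2 and 3. The remaining glycosidases, Gaa, Gla, Glb1 and Hexa, differed by -0.24 to 0.26 and had no unadjusted p under 0.05. Glb1, the beta-galactosidase used as a senescence stain, was the one with a negative value, at 9.16, 12.9 and 12.1 FPKM in KO and 17.8, 10.2 and 10.9 FPKM in wildtype. Wildtype 1 was far above the other 5 libraries there.

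Of the 7 proteases none had an unadjusted p under 0.05, against 13.7% of all genes tested. The log2 difference was positive for 2 and negative for 5, with a median of -0.09, while 47.5% of all genes had a positive one. Without KO 1 it was positive for 3 and negative for 4, with a median of -0.01. Ctsb, which encodes the cysteine protease cathepsin B, stood at 127, 127 and 124 FPKM in KO and 151, 122 and 165 FPKM in wildtype, and differed by -0.18 (SE 0.198, edgeR adjusted p = 0.783) on the log2 scale. Ctsd, which encodes the aspartic protease cathepsin D, stood at 331, 346 and 344 FPKM in KO and 336, 353 and 402 FPKM in wildtype, and differed by -0.09 (SE 0.187, edgeR adjusted p = 0.915) on the log2 scale. Both overlapped between genotypes, and their intervals ran from -0.65 to 0.28 for Ctsb and from -0.53 to 0.35 for Ctsd (95% confidence). Ctsd shares 808 of its 2351 exon bases with Gm49369 on the same strand, which was listed at 0 to 1.15 FPKM. In all, 14 members share exon bases with another gene, 12 of them on the opposite strand and 3 on the same strand.

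Ctsl, the gene of cathepsin L, was the member with the most negative difference. It stood at 18.9, 16.2 and 15.0 FPKM in KO and 22.1, 19.5 and 22.9 FPKM in wildtype, and every KO library was below every wildtype library. On the log2 scale KO minus wildtype was -0.29 (SE 0.152, unadjusted p = 0.101, edgeR adjusted p = 0.482). It was -0.49 without KO 1 and -0.10 without KO 2 and 3. Ctsl shares 1742 of its 6489 exon bases (26.8%) with Gm47123 on the opposite strand, for which no FPKM was listed. It shares 395 with the pseudogene Gm49230 on the same strand, listed at 2e-06 FPKM at most. The part of such reads in the Ctsl values was not tested. Ctsh, the gene of cathepsin H, lay above wildtype in every KO library, at 38.2, 36.9 and 38.2 FPKM against 30.2, 33.7 and 32.2 FPKM, with a log2 difference of 0.26 (SE 0.133, edgeR adjusted p = 0.463). The remaining proteases, Ctsa, Ctsz and Tpp1, differed by -0.22 to 0.07. The lowest value, that of Tpp1, rested on KO 1 and was -0.01 without it.

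Of the 3 lipid hydrolases and thioesterases, Asah1 had an unadjusted p under 0.05, against 13.7% of all genes tested. It encodes acid ceramidase, which cleaves ceramide, and lies at chr8:41340197-41374773 on the minus strand. Its levels were 31.0, 38.4 and 37.2 FPKM in KO and 29.5, 27.6 and 28.9 FPKM in wildtype, without overlap, though KO 1 was the nearest to wildtype. KO and wildtype differed on the log2 scale by 0.28 (SE 0.117, unadjusted p = 0.0479, edgeR adjusted p = 0.360). Lipa, the acid lipase gene, and Ppt1, the palmitoyl-protein thioesterase gene, differed by -0.14 and 0.31. For Ppt1 the value was 0.54 without KO 1 and 0.04 without KO 2 and 3, and for Lipa it was -0.00 without KO 1 and -0.28 without KO 2 and 3. Ppt1 shares 129 of its 3674 exon bases with Cap1 on the opposite strand. Cap1 stood at 160, 217 and 213 FPKM in KO and 133, 131 and 134 FPKM in wildtype. KO 2 and KO 3 were its highest libraries, as for Ppt1. The part of Cap1 reads in the Ppt1 values was not tested.

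Cln3, which encodes a lysosomal membrane protein whose loss causes juvenile Batten disease, had the largest difference of all members. The gene lies at chr7:126571207-126585817 on the minus strand. It stood at 10.2, 14.7 and 14.3 FPKM in KO and 9.10, 7.54 and 9.04 FPKM in wildtype. All KO libraries were above all wildtype libraries, with means of 12.4 ± 3.03 FPKM (SD, n = 2) and 8.56 ± 0.882 FPKM (SD, n = 3). This was a log2 difference of 0.54 (SE 0.154, unadjusted p = 0.00933, edgeR adjusted p = 0.206). It was 0.73 without KO 1 and 0.34 without KO 2 and 3. Cln3 shares 442 of its 5781 exon bases (7.65%) with Apobr, a neighbour on the opposite strand. Apobr stood at 28.7, 52.8 and 53.7 FPKM in KO and 24.1, 19.8 and 26.6 FPKM in wildtype, and KO 2 and KO 3 were the highest libraries, as for Cln3. The libraries were made strand-specific, but whether strand was used in counting is not given in the sources used here, and the part of Apobr reads in the Cln3 values was not tested.

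Psap, the gene of the precursor of the saposins, which help hydrolases reach their lipid substrates, stood at 419, 535 and 533 FPKM in KO and 457, 359 and 499 FPKM in wildtype. Its log2 difference was 0.14 (SE 0.224, edgeR adjusted p = 0.878). Mcoln1, the gene of the calcium channel TRPML1, stood at 4.26, 5.09 and 5.02 FPKM in KO and 5.95, 4.66 and 5.30 FPKM in wildtype, and differed by -0.17 (SE 0.138, edgeR adjusted p = 0.690) on the log2 scale. The cholesterol exporter gene Npc1 stood at 2.66, 3.84 and 3.45 FPKM in KO and 3.61, 2.49 and 3.02 FPKM in wildtype, and differed by 0.07 (SE 0.180, edgeR adjusted p = 0.936) on the log2 scale. For all 3 genes the genotypes overlapped. Npc2, the gene of the soluble partner of NPC1, differed by -0.05.

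The 3 membrane glycoproteins that line the lysosome all had positive log2 differences, against 47.5% of all genes tested. None of them had an unadjusted p under 0.05, against 13.7% of all genes. Lamp1 stood at 161, 163 and 161 FPKM in KO and 142, 136 and 151 FPKM in wildtype. All KO libraries were above all wildtype libraries. On the log2 scale KO minus wildtype was 0.19 (SE 0.146, edgeR adjusted p = 0.656), and its 95% interval, from -0.15 to 0.54, included 0. Lamp2, a splice form of which is the receptor of chaperone-mediated autophagy, stood at 22.8, 34.9 and 36.2 FPKM in KO and 24.6, 22.8 and 21.7 FPKM in wildtype. KO 2 and KO 3 were high and KO 1 lay within the wildtype range. Its log2 difference was 0.35 (SE 0.182, edgeR adjusted p = 0.471), and it was 0.59 without KO 1 and 0.07 without KO 2 and 3. Cd63 differed by 0.12; a pseudogene of it, Cd63-ps, had a mean of 19.2 ± 4.03 FPKM in wildtype (SD, n = 3), so the split of reads between the copies is uncertain.

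Tfeb itself was at a low level, with 4.74, 5.35 and 4.90 FPKM in KO and 4.20, 4.05 and 3.94 FPKM in wildtype. Every KO library was above every wildtype library. KO and wildtype differed on the log2 scale by 0.30 (SE 0.133, unadjusted p = 0.0593, edgeR adjusted p = 0.392), and it was 0.30 both without KO 1 and without KO 2 and 3. The 8 members whose promoters are printed above with the longer E-box did not share a direction. Positive differences were seen for Cln3, Atp6v0d1, Gla, Atp6v1a and Atp6v0e (0.08 to 0.54), negative ones for Mcoln1 and Ctsd (-0.17 and -0.09), and that of Ctsa was -0.00 with a 95% interval of -0.39 to 0.38.

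**Figure D4:**
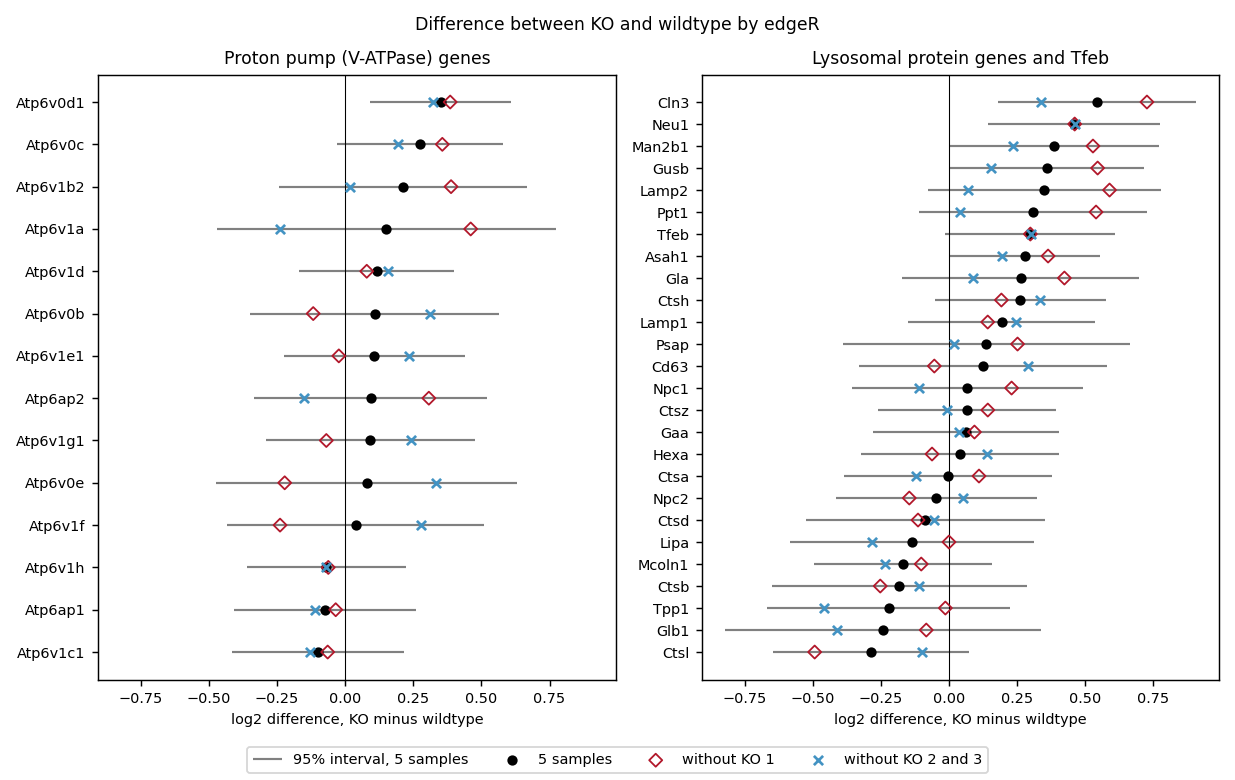
Log2 difference between KO and wildtype of each member in edgeR (black points) with its 95% interval (grey lines), and the same without KO 1 (open diamonds) or without KO 2 and 3 (crosses). For Neu1, Tfeb and Atp6v0d1 the 3 values lie close together, at 0.46, 0.30 and 0.32 to 0.39, whereas for Atp6v1a they span -0.24 to 0.46.

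Further genes of the same machinery were described from 4 lists. Of 14 other V-ATPase genes tested (19 listed, 17 in the table), 1 was higher and 3 were lower in KO at an unadjusted p under 0.05, against 7.63% and 6.07% of all genes, and the median log2 difference was 0.02. Dmxl2, whose product helps assemble the pump, was the higher one, at 4.13, 9.13 and 9.03 FPKM in KO and 3.47, 3.44 and 3.10 FPKM in wildtype, a log2 difference of 0.98 (SE 0.271, edgeR adjusted p = 0.200). KO 1 was far closer to wildtype than to the other KO libraries. The lower ones were Dmxl1 (-0.56), Ncoa7 (-0.44) and Atp6v0d2 (-0.83). Atp6v0d2 encodes the d subunit found in osteoclasts, where Atp6v0d1 is the form used in most cells. It stood at 11.1, 15.7 and 16.2 FPKM in KO and 35.8, 17.3 and 20.4 FPKM in wildtype. Every KO library was below every wildtype library, and wildtype 1 was far above the rest.

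Of 28 other hydrolases and their activators, 3 were higher and 0 lower at an unadjusted p under 0.05. The shares of all genes were 7.63% and 6.07%, and the median of the list was 0.02. Galns, the sulfatase that degrades keratan sulfate and chondroitin sulfate of cartilage, stood at 22.1, 26.4 and 26.002 FPKM in KO and 14.6, 15.3 and 14.2 FPKM in wildtype. The genotypes were well apart, with means of 24.2 ± 2.88 FPKM (SD, n = 2) and 14.7 ± 0.551 FPKM (SD, n = 3). This was a log2 difference of 0.73 (SE 0.126, unadjusted p = 0.000614, edgeR adjusted p = 0.166), and it ranged from 0.71 to 0.80 when any 1 library was left out and was 0.67 without KO 2 and 3. In the 6 libraries as labelled its edgeR adjusted p was 0.0315.

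The 14 other membrane and sorting proteins had a median of -0.01. At an unadjusted p under 0.05, 1 was higher and 0 lower, against 7.63% and 6.07% of all genes. The higher one was Sort1, which encodes the sorting receptor sortilin, with a log2 difference of 0.64 (SE 0.171, edgeR adjusted p = 0.193, and 0.0461 in the 6 libraries as labelled). M6pr, the gene of a mannose 6-phosphate receptor that delivers hydrolases, came next, at 53.3, 63.2 and 65.6 FPKM in KO and 52.5, 49.4 and 52.2 FPKM in wildtype, a log2 difference of 0.21 (SE 0.129, edgeR adjusted p = 0.555). Of 18 genes of the TFEB family and of lysosomal nutrient sensing, 1 was higher at that p, Tfec (0.65), and 1 was lower, Rragd (-0.56). The same shares of all genes apply, and the median of the list was 0.09. Tfe3, the close relative of Tfeb, differed by 0.26 (SE 0.159, edgeR adjusted p = 0.562).

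Several cell types rich in lysosomes or pumps left marker RNA in these libraries, and their summed levels are set beside the members. The 9 osteoclast markers summed to 609, 815 and 809 FPKM in KO and 1549, 771 and 738 FPKM in wildtype. At an unadjusted p under 0.05, 0 of them were higher and 3 lower. The shares of all genes at that p, 7.63% higher and 6.07% lower, stand beside each marker count below as well. The osteoclast sums overlapped between genotypes, and wildtype 1 was the highest. Gene by gene, 5 of the 9 markers (Acp5, Ctsk, Dcstamp, Oscar and Atp6v0d2) were below every wildtype library in every KO library, against 13.7% of all genes, and the other 4 overlapped. Ctsk, the collagen-degrading cathepsin K, stood at 219 to 243 FPKM in KO and 278 to 731 FPKM in wildtype. Mmp9, a gelatinase gene with a large share of the sum, stood at 201, 343 and 337 FPKM in KO and 253, 169 and 199.8 FPKM in wildtype. Unlike those 5 markers, Mmp9 was highest in KO 2 and KO 3, so the overlap of the sums does not describe the 5. Macrophage markers summed to 277 to 345 FPKM in KO and 329 to 428 FPKM in wildtype, with 0 of 7 tested higher and 1 lower. Neutrophil markers had 5 of 8 higher and 0 lower, and erythroid markers 0 of 6 higher and 3 lower. All 6 B cell markers were lower at that p, with sums of 80.6 to 129 FPKM in KO and 259 to 286 FPKM in wildtype. Chondrocyte markers, with 6 tested, had 0 higher and 0 lower, and summed to 1200 FPKM in KO 1 and 510 to 696 FPKM in the other 5 libraries. Prg4 made up most of these sums, at 1034 FPKM in KO 1 and 402 to 581 FPKM in the other 5. Skeletal muscle markers summed to 127 FPKM in KO 1, 3.43 to 4.27 FPKM in KO 2 and 3, and 29.7 to 239 FPKM in wildtype. Osteoblast markers summed to 591 to 700 FPKM in KO and 475 to 1350 FPKM in wildtype. The part of these cell types in the lysosomal differences was not tested.

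**Figure D5:**
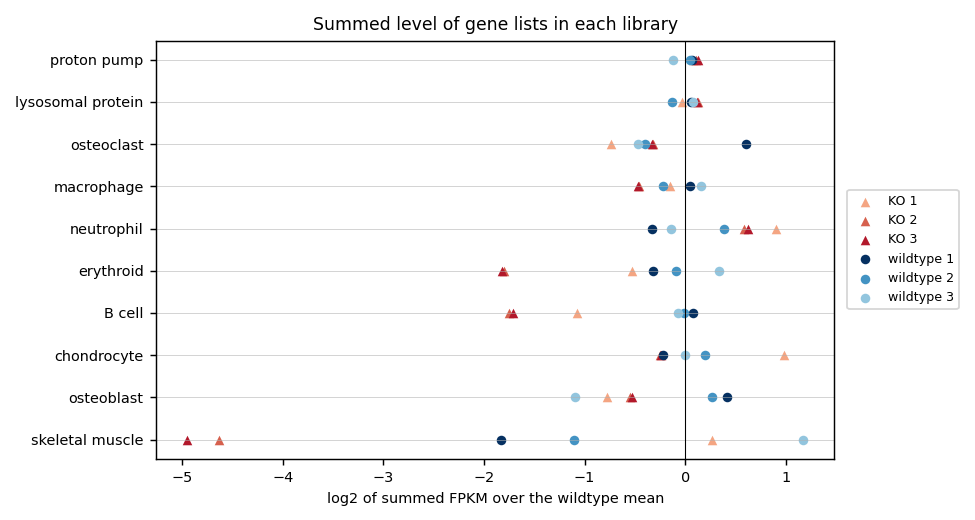
Summed FPKM of the pump genes, the lysosomal protein genes and 8 lists of cell type markers in each library, as log2 of the ratio to the wildtype mean (horizontal axis). Triangles are KO and circles wildtype libraries; the pump and lysosomal sums lie close to 0 in every library, while neutrophil sums are higher in all 3 KO libraries and B cell and erythroid sums are lower.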

How the data were processed

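Articular cartilage RNA of 3 KO and 3 wildtype libraries was measured by strand-specific poly(A) sequencing. The authors deposited a table of 34709 genes with a count and an FPKM value per library. The submitters' processing notes name cutadapt 1.9, HISAT2 2.0.4, UMI-tools, StringTie 1.3.4d, DESeq2 and edgeR without their roles. Scaling of FPKM between libraries and the use of strand in counting are not given in the sources used here. Deposited counts were whole numbers that piled up at 4 (6596 values, against 4170 at 3 and 2332 at 5), so 1 count was not taken to be 1 read pair. Gene positions followed GRCm38, and 0 sample columns were left unused.

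All genes averaging 0.5 FPKM or more over the 6 libraries were tested by edgeR 4.0.16 (quasi-likelihood, TMM scaling, two-sided, Benjamini-Hochberg adjustment over 15373 genes) in R 4.3.3. The counts of KO 2 and 3 were averaged and rounded. Exon overlaps and lengths came from GENCODE annotation of GRCm38. Alternatives were DESeq2 1.42.0, limma 3.58.1 on log2(FPKM + 1) and log2(FPKM + 0.1), other size factors, no filter, counts divided by 4, the 6 libraries as labelled with and without a replicate block, and each library left out. The fit was also run on simulated data, as a check of the direction of the differences. Every gene was drawn there with the same relative spread and the samples varied independently. That run therefore gives no error rates for these libraries. Replicate numbers did not pair the samples. A count of 0 allows up to 0.0574 CPM at 3 counts in the shallowest library, which covers counting error only.

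The members, lists and tests were chosen with earlier results of these data known. By rule, values per library are given for members with an unadjusted p under 0.05 and for Tfeb, Lamp1, Lamp2, Ctsb, Ctsd, Ctsl, Psap, Mcoln1, Npc1, Atp6v1a, Atp6v0c and Atp6ap2, and each further list is described by counts with 2 to 4 members of smallest p, or 1 where others are not reported here; the gene knocked out is not reported either. Atp6v1b2, Atp6v1f, Glb1, Ctsh, Apobr, Cap1, Tfe3 and Ctsk were added after their values were seen.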

Additional observations from a re-analysis of the deposited data

How the results depend on the processing

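The count of genes called at an adjusted p of 0.05 was 0 in edgeR on 5 samples, 21 with no filter on low values, 879 in DESeq2, 570 in the 6 libraries as labelled, 9 without the averaged KO 2 and 3, and 0 to 352 when 1 library was left out, the highest being without KO 1. Where it was 0, unadjusted p under 0.05 gave 2106 genes in the 5 samples, 2112 with median-of-ratios factors, 1800 and 1826 in limma with pseudocounts of 1 and 0.1, and 2118 with counts divided by 4. Pump genes at an unadjusted p under 0.05 numbered 1, but 2 in DESeq2, 2 in the 6 libraries, and 0 (without wildtype 3) to 2 (without KO 1) when 1 library was left out. Lysosomal protein genes numbered 5, but 2 in limma with either pseudocount, 9 in the 6 libraries, 1 without KO 2 and 3, and 1 to 8 when 1 library was left out: 8 without KO 1, 2 without wildtype 1, 2 without wildtype 2 and 1 without wildtype 3. With 1 library left out, the median log2 difference of pump genes ranged from -0.029 (without KO 1) to 0.16 and that of lysosomal protein genes from 0.028 (without wildtype 2) to 0.15; without KO 2 and 3 the medians were 0.17 and 0.05. In DESeq2, Atp6v0d1 (0.36) and Cln3 (0.56) passed an adjusted p of 0.05. The counts over all genes tested at an unadjusted p under 0.05 moved as well. They were 2473 in DESeq2, 3408 in the 6 libraries, and 1437, 1882 and 1384 without wildtype 1, 2 and 3. For the fits without KO 1 and without KO 2 and 3 the shares of all genes are given above. The cause of the shifts between settings was not tested.

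Of the members, 23 kept their sign under every alternative run and 17 did not. Signs turned for Atp6v0e (-0.015) and Atp6v1f (-0.048) in the 6 libraries, for Ctsa under median-of-ratios factors (0.0082), no filter (0.037), DESeq2 (0.0082) and in the 6 libraries (0.035), and without KO 2 and 3 for Atp6v1a (-0.24), Atp6ap2 (-0.15), Ctsz (-0.0085), Npc1 (-0.11) and Npc2 (0.052). With 1 library left out the ranges that crossed 0 were -0.12 to 0.26 for Atp6v0b, -0.22 to 0.29 for Atp6v0e, -0.023 to 0.18 for Atp6v1e1, -0.24 to 0.18 for Atp6v1f, -0.069 to 0.21 for Atp6v1g1, -0.12 to 0.016 for Atp6ap1, -0.054 to 0.24 for Cd63, -0.097 to 0.11 for Ctsa, -0.029 to 0.14 for Gaa, -0.36 to 0.028 for Glb1, -0.063 to 0.12 for Hexa, -0.25 to 0.043 for Lipa, -0.034 to 0.23 for Npc1 and -0.15 to 0.047 for Npc2. The cause was not tested.

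The replicate numbers did not pair the samples: deviations of same-numbered KO and wildtype libraries correlated at -0.14, -0.11 and -0.06. With the replicate block in the 6 libraries, edgeR called 0 genes (2809 at an unadjusted p under 0.05), 1 pump and 6 lysosomal protein genes had an unadjusted p under 0.05, and Atp6v0e (-0.015), Atp6v1f (-0.056) and Ctsa (0.041) turned sign.

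The lowest wildtype mean of a member was 3.04 FPKM. The fit without KO 1 left 1 KO sample, the averaged KO 2 and 3, which was assumed to vary like the wildtype samples, and the fit without KO 2 and 3 likewise.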
